A study of Carica papaya with 12 samples.

Results

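The comparison described here is that of larger and smaller male flower buds of papaya, Carica papaya: 2 libraries of buds of 7–12 mm against 2 libraries of buds of 1–6 mm, which are 4 of the 12 libraries of the series. They were chosen by sex and bud size as labelled, over all 27689 genes of the count files, of which 22405 had a count in a male library and 19339 passed the low-count filter and were tested. All male buds came from the breeding material 'AU9', and the study places buds of 1–6 mm before meiosis and buds of 7–12 mm after it. The remaining 8 libraries, used to set the male change beside that of the other sexes, came from female 'AU9' and hermaphrodite 'SunUp' buds of the same size classes, with 2 libraries in each group. Hermaphrodites are thus also another cultivar, so that their sex cannot be told apart from their cultivar. Whole buds were used, each size class spans several developmental stages, and the number of plants behind a library is not given in the sources used here, so p-values measure the spread between these libraries. Replicate 1 of every group was read single-end on one sequencer and replicate 2 paired-end on another, so the sizes were compared within replicate numbers.

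A stamen begins as a dividing primordium in which sporogenous cells are set apart from the surrounding wall layers. The tapetum, the innermost wall layer, is specified by a receptor kinase and its ligand, then runs a series of transcription factors (in Arabidopsis DYT1, TDF1, AMS and MS1, in that order), feeds the microspores released after meiosis, supplies pollen wall material and finally degenerates. Papaya male flowers carry functional stamens and a rudimentary pistil.

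Gene counts summed to 16564137 in replicate 1 and 6593411 in replicate 2 of the smaller male buds, to 12704714 and 6767806 in the larger ones, and to 4520811 to 16564137 over the whole series. Levels of single genes are in CPM, the count relative to the library total after TMM (trimmed mean of M-values) scaling. They depend on gene length and are compared within a gene only. In the smaller male buds of replicate 2, 1 gene model took 0.686% of the counts against 0.0239 to 0.0399% in the other male libraries, and the same model took 2.71% in hermaphrodite buds of 1–6 mm of replicate 2. Without both of these libraries, an alternative chosen after seeing the data, fewer genes were called, as given below. The labelled sex was checked with the 5 tapetum genes of the lists (TDF1, DYT, AMS isoforms 1 and 2 and CpMS1). Their summed level was 789.4 to 1398 CPM in the male libraries, 0.2172 to 2.58 CPM in the female and 776.7 to 1862 CPM in the hermaphrodite ones. The check thus separates male from female libraries, but not male from hermaphrodite ones. The study had already reported these 5 genes higher in male than in female buds from these libraries, so this separation was known beforehand.

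Male buds of the 2 sizes differed in 1403 of 19339 genes (7.25%). Of these, 722 (3.73%) were higher and 681 (3.52%) lower at 7–12 mm. A gene is called when edgeR's quasi-likelihood test gave a Benjamini-Hochberg adjusted p under 0.05 over all tested genes and the change was more than 2-fold. The median log2 fold change of all tested genes was 0.004, so the called genes are measured about a centre near 0. The numbers in both directions were close, but the sizes of the fitted changes were not. More than 4-fold fitted changes were found in 354 rising and 165 falling genes, more than 8-fold changes in 224 and 58, and more than 32-fold changes in 121 and 13. For genes without counts at one size only a lower bound of the fold is known. The 2 largest falls by fitted change have bounds of 12.5-fold and 10.7-fold. The numbers above the higher limits thus depend in part on the fit.

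The rising genes together took 3.06 and 3.22% of all counts in the smaller buds (replicates 1 and 2) and 10.4 and 10.3% in the larger ones. The falling genes took 3.03 and 3.06% in the smaller buds and 0.94 and 1.1% in the larger ones. The rising genes thus took a larger share of the reads of both larger libraries, and the falling genes a smaller one. A rising gene model held the most reads of both larger libraries, with 185956 and 86810 counts there against 81675 and 37714 in the smaller ones (log2 fold change 1.47, SE 0.16, edgeR adjusted p = 4.006e-05).

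The 2 replicate pairs gave the same direction for 714 of the 722 rising and 680 of the 681 falling genes, and more than 2-fold changes in both pairs for 607 and 516. The sizes did not overlap in 713 rising genes and 667 falling ones. The contrast that called these genes uses the same libraries, so agreement of the pairs is expected and is no separate support. The share of all tested genes that agree between the pairs was not counted. Over all tested genes, with no regard to the test, both larger libraries lay above both smaller ones in 27.1% and below them in 23.8%, so separation of 2 libraries from 2 is common by itself. The adjusted p-values rest on a spread pooled over the 12 libraries. The call without the replicate number in the model was made for 1100 genes, 1087 of them among the 1403. Without both libraries rich in the single gene model, 925 genes were called, 499 higher and 426 lower.

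**Figure D1:**
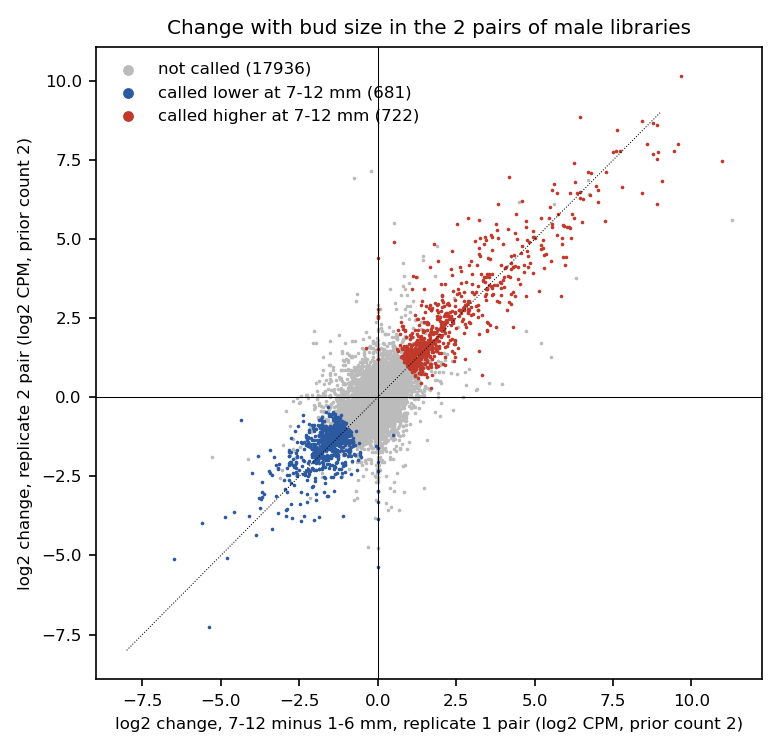
Each point is 1 of the 19339 tested genes, with the log2 change from 1–6 to 7–12 mm in the replicate 1 pair on the x axis and in the replicate 2 pair on the y axis (log2 CPM with a prior count of 2). Red points are the 722 genes called higher, blue points the 681 called lower and grey points the rest, the dotted line marks equal change, and the red cloud reaches much farther from 0 than the blue one.

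In the smaller buds 40 genes had no count in either library and at least 10 counts in both larger libraries, and 2 genes showed the reverse. Of the 40 genes, 36 passed the test. All 40 were chosen by these same counts, so the number passing is no separate support. Those with few counts in the other groups passed the low-count filter only through the larger male buds. The folds of the 40 are lower bounds, taken against 3 counts over both smaller libraries. They ran from at least 12-fold to at least 291-fold, with a median bound of 50.6. The 4 that did not pass had bounds of 164, 150, 83.4 and 58.6. In the 4 female libraries together 35 of the 40 had at most 3 counts, and 14 had at most 3 counts over the larger hermaphrodite buds. The others had more than 3 counts in hermaphrodite buds of that size.

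The files do not pair gene IDs with names, so genes outside the study's own lists are identified by number only, and the extremes are given for 2 genes in each direction, with positions on the scaffolds of the authors' PacBio assembly. The largest rise by fitted change was that of evm.model.supercontig_51.29 (scaffold scf7180000008788, 347196 to 348821, minus strand, 5 exons), with 0 counts in both smaller libraries and 417 and 264 counts in the larger ones, at least 291-fold. Larger hermaphrodite buds held 29 and 50 counts of it, smaller ones 0 and 0, and the female libraries 1 count in all. The next, evm.model.supercontig_7.217 (scaffold scf7180000007833, 756958 to 759590, minus strand), went from 0 and 0 to 357 and 170 counts, at least 225-fold, and had 481 and 250 counts in larger hermaphrodite buds. Both genes were thus counted in the larger male and hermaphrodite buds.

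The largest falls concerned genes of low count. The first, evm.model.supercontig_1993.1 (scaffold scf7180000009718, 120038 to 120822, plus strand, 1 exon), had 39 and 9 counts in the smaller buds and 0 in both larger libraries, at least 12.5-fold lower. The second, evm.model.supercontig_17.135 (scaffold scf7180000008804, 297119 to 297983, plus strand), had 26 and 15 counts and then 0 and 0, at least 10.7-fold lower. Neither had a count in a female library, and evm.model.supercontig_17.135 also went from 47 and 13 to 0 and 0 in hermaphrodite buds. The call of evm.model.supercontig_1993.1 was lost without replicate 1 of the smaller buds (edgeR adjusted p = 0.05383) and without replicate 1 of the larger buds (edgeR adjusted p = 0.078), and that of evm.model.supercontig_17.135 without both libraries rich in the single gene model (edgeR adjusted p = 0.06233).

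Named genes come from 83 gene models that the study listed, grouped here by function into 8 lists. The study chose most of them for differences between these libraries, and these are not independent evidence of a direction. It took the others from regulators of MS1 known in model plants or from a comparison of male flowers that are not analysed here. One of them, CYP85A2, had no count in a male library. Of the other 82, 8 were called higher (against 3.73% of all tested genes), 17 lower (against 3.52%) and 57 were not called, and their median log2 fold change was -0.10. Of the 5 light and clock genes none was called, with edgeR adjusted p between 0.003911 and 0.8714, and GIGANTEA-like at the lowest of these had a log2 change of 0.59.

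**Figure D2:**
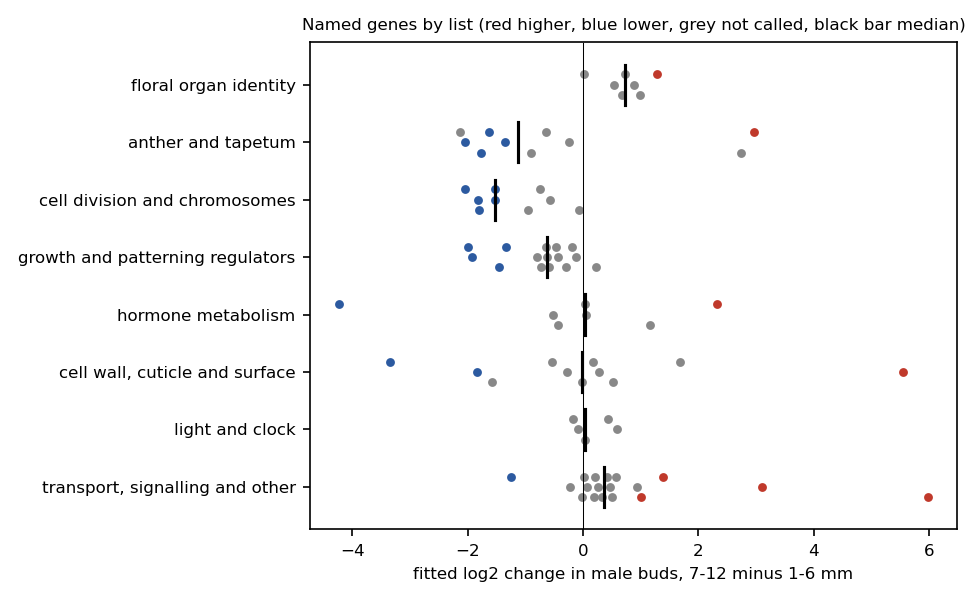
Points are the 82 listed genes with a male count, in 8 lists on the y axis, and the x axis is the fitted log2 change from 1–6 to 7–12 mm in male buds. Red marks genes called higher, blue called lower and grey not called, black bars are list medians, and the list medians lie at -1.52 for cell division and at 0.72 for floral organ identity.

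Of the 7 floral organ identity genes, 6 did not overlap between the sizes and had higher levels in the larger buds, as had 27.1% of all tested genes, and 1 was called higher, against 3.73% of all. The list's median log2 fold change was 0.72 against 0.004 over all genes. AP3 isoform 1 (evm.model.supercontig_6.199, scaffold scf7180000009679, 30055 to 31724), a class B gene for petal and stamen identity, measured 267.7 and 234.6 CPM in the smaller buds and 592.6 and 632.7 CPM in the larger ones, and the sizes did not overlap. It rose 2.44-fold (log2 1.28, SE 0.12, edgeR adjusted p = 1.356e-05). Its neighbour AP3 isoform 2, on the same scaffold, measured 144.5 and 138.2 and then 248.9 and 272.2 CPM (log2 0.88, edgeR adjusted p = 4.539e-05, under the fold limit). PI, the class B partner of AP3, measured 128.7 and 123.3 and then 229.2 and 274.6 CPM (log2 0.99, edgeR adjusted p = 0.0003667), also just under the fold limit. For SEP3, which joins these factors in complexes, the log2 change was 0.68 (edgeR adjusted p = 0.0007613). CRABS CLAW/HMG-box, a carpel and nectary gene, had values of 23.57 and 24.8 CPM and then 41.28 and 38.06 CPM (log2 0.72), and for AP2 the change was 0.02, which was negative in some of the alternatives. The summed CPM of PI and both AP3 models was 541 and 496.1 in the smaller and 1071 and 1179 in the larger buds.

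The genes of anther and tapetum moved in both directions, 4 of 10 lower and 1 higher, with a median log2 fold change of -1.13. Called over all tested genes were 3.52% lower and 3.73% higher. SPL/NZZ (evm.model.supercontig_12.16), which initiates sporogenous cells in Arabidopsis, measured 10.54 and 11.83 CPM in the smaller buds and 2.337 and 3.258 CPM in the larger ones, with no overlap (log2 -2.04, SE 0.36, edgeR adjusted p = 0.001978). EMS1/EXS-like, the receptor kinase of tapetum specification, measured 29.56 and 36.49 and then 10.75 and 15.4 CPM (log2 -1.36, SE 0.23, edgeR adjusted p = 0.002157). TPD1, its ligand, measured 7.93 and 5.776 and then 1.869 and 2.37 CPM (log2 -1.76, SE 0.40, edgeR adjusted p = 0.009856). RPK2, another anther receptor kinase, did not pass (log2 -0.24, edgeR adjusted p = 0.1273). Receptor and ligand were thus called in the same direction. Both were also counted in female buds of 1–6 mm, at 36.71 and 58.6 CPM for EMS1/EXS-like and 5.792 and 5.16 CPM for TPD1. Their levels are thus not particular to buds with stamens. In hermaphrodites EMS1/EXS-like was called lower (log2 -1.30, edgeR adjusted p = 0.003795) and TPD1 was not called (log2 0.53, edgeR adjusted p = 0.4141). The call of TPD1 was lost without replicate 1 or 2 of the smaller buds or replicate 1 of the larger (edgeR adjusted p = 0.07931, 0.05453 and 0.1813), and that of SPL/NZZ without replicate 1 of the larger (edgeR adjusted p = 0.05468). The number of falling anther genes was 1 to 2 in place of 4 when replicate 1 or 2 of the smaller buds or replicate 1 of the larger buds was left out.

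The transcription factors of the tapetum did not move together. DYT had few reads, with 90 and 31 counts and then 26 and 22 (log2 -0.89, edgeR adjusted p = 0.07772), and TDF1 measured 495.6 and 393.9 and then 252.4 and 323.5 CPM (log2 -0.64, edgeR adjusted p = 0.2705). Neither was called. AMS isoform 1 (evm.model.supercontig_20.95, scaffold scf7180000007993, 110845 to 113574, plus strand) measured 825.5 and 673.6 CPM in the smaller and 230.3 and 257.4 CPM in the larger buds, with no overlap (log2 -1.62, SE 0.40, edgeR adjusted p = 0.03761). That call was lost in 10 alternatives, among them the fit without the replicate block (edgeR adjusted p = 0.072), DESeq2 (adjusted p = 0.2799) and the fits without any single male library (edgeR adjusted p = 0.124 to 0.2062).

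AMS isoform 2 (evm.model.supercontig_20.94) lies on the same scaffold and strand at 100122 to 101393, next to isoform 1, and went the other way. It measured 14.47 and 6.481 CPM in the smaller buds and 91.45 and 81.16 CPM in the larger ones, with no overlap, a 7.79-fold rise (log2 2.96, SE 0.34, edgeR adjusted p = 0.001571), and the call held in every alternative with a test. Without replicate 1 of the smaller buds the log2 change was 3.80. A read aligned to several places was counted at each, so reads that both models share could not be split between them. The adjoining pair thus fell by 1.62 and rose by 2.96 on the log2 scale in the same libraries.

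CpMS1 (evm.model.supercontig_2.119, scaffold scf7180000009250, 1412751 to 1414936, minus strand), a PHD finger gene that acts late in the Arabidopsis tapetum, differed widely between the smaller replicates. It had 1027 and 43 counts in the smaller buds, or 56.95 and 6.058 CPM, and 2737 and 1157 counts in the larger buds, or 213.2 and 171.4 CPM. Both larger libraries lay above both smaller ones, but the group of smaller buds had an SD of 36.0 about a mean of 31.5 CPM (n = 2), and the change was not called (log2 2.73, SE 0.79, edgeR adjusted p = 0.09441). The log2 change was 4.93 without replicate 1 of the smaller buds (edgeR adjusted p = 7.063e-06) and 1.80 without replicate 2 (edgeR adjusted p = 0.0003681), both past the thresholds. CpMMD1, a PHD finger gene of meiocytes, had 22 and 8 counts and then 2 and 3 (log2 -2.14, edgeR adjusted p = 0.06092) and was not called.

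**Figure D3:**
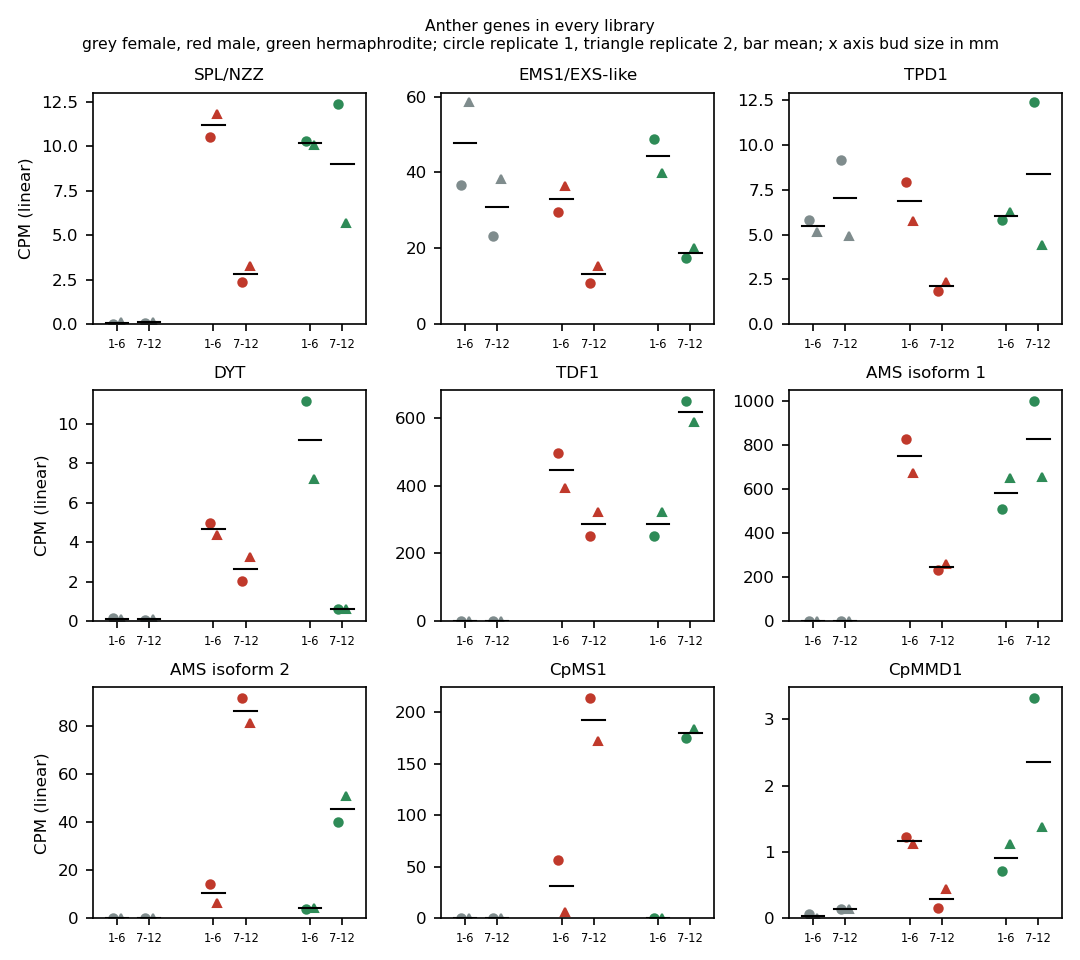
Panels show the CPM of 9 anther genes on linear y axes that start at 0, with bud size (1–6 and 7–12 mm) on the x axis, female libraries in grey, male in red and hermaphrodite in green. Circles are replicate 1, triangles replicate 2 and bars the mean of the 2. In males AMS isoform 1 is low and AMS isoform 2 high at 7–12 mm, and the 2 smaller male libraries of CpMS1 stand far apart at 56.95 and 6.058 CPM.

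The same split between the smaller male libraries appeared in other genes. Glucan endo-1,3-beta-glucosidase-like, of a family whose anther members break down callose, measured 69.99 and 11.41 CPM at 1–6 mm but 138.7 and 142.5 CPM at 7–12 mm (log2 1.68, edgeR adjusted p = 0.2872). GPAT1, an acyltransferase needed in the Arabidopsis tapetum, measured 119 and 28.88 and then 115.5 and 91.23 CPM. Among genes counted in hermaphrodite buds and hardly in female ones (at most 3 counts over the 4 female libraries, at least 10 in both hermaphrodite libraries of a size, and no male value used), replicate 1 was more than 4-fold above replicate 2 in 8 genes (6.3%) in the smaller male buds and in 3 (2.36%) in the larger. Over all tested genes these shares were 0.145 and 0.253%. Genes with replicate 2 more than 4-fold above replicate 1 were not counted. The list holds genes with as few as 1 count over the male libraries, and no share was taken at matched counts. The median change from small to large of these genes was 0.25 on the log2 scale in the replicate 1 pair and 1.34 in the replicate 2 pair. The sequencing platform differs, and the stage may differ, between the 2 smaller male libraries. Each platform read a single library of each male size, so platform and stage cannot be told apart. In the 2 larger male libraries CpMS1 measured 213.2 and 171.4 CPM. The cause of the split was not tested. In such bulk samples fewer cells of a type and less RNA per cell cannot be told apart, here or for the other lists.

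Of 9 genes of cell division and chromosomes, 5 were called lower and none higher, with a median log2 fold change of -1.52, and 8 of the 9 were lower in the larger buds without overlap, as were 23.8% of all tested genes. Called lower over all genes were 3.52%. Cyclin-D3-1, which drives entry into the division cycle, measured 34.11 and 34.8 CPM in the smaller and 9.737 and 10.22 CPM in the larger buds (log2 -1.80, SE 0.17, edgeR adjusted p = 2.004e-05). TOP2, the topoisomerase that untangles replicated DNA, measured 69.04 and 70.86 and then 19.78 and 19.7 CPM (log2 -1.83, SE 0.21, edgeR adjusted p = 0.0002476). Shugoshin-1-like, of the family that protects cohesion at centromeres, measured 12.26 and 12.54 and then 3.194 and 2.814 CPM (log2 -2.04, SE 0.27, edgeR adjusted p = 0.0002231). In these 3 genes the replicates of each size lay close together and the sizes far apart.

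The spindle and cytokinesis kinesins fell by similar amounts. KIFC1 measured 54.07 and 54.66 and then 21.73 and 15.7 CPM (log2 -1.52, SE 0.17, edgeR adjusted p = 6.369e-05), and NACK1, which acts at the cell plate in tobacco, 34.72 and 31.56 and then 13.01 and 9.775 CPM (log2 -1.53, SE 0.16, edgeR adjusted p = 2.99e-05). All 5 calls held in every alternative with a test. NCAPD3, a condensin subunit, passed the adjusted p but not the fold limit (log2 -0.95, edgeR adjusted p = 0.003092), as did Histone H3 isoforms 1 and 2 (log2 -0.74 and -0.57, edgeR adjusted p = 0.002046 and 0.01371). RAD50, a repair gene that is also used outside the division cycle, measured 54.13 and 46.21 and then 54.84 and 40.58 CPM (log2 -0.07, SE 0.17, edgeR adjusted p = 0.8236), and its sizes overlapped. Without replicate 2 of the larger buds its change was 0.04.

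**Figure D4:**
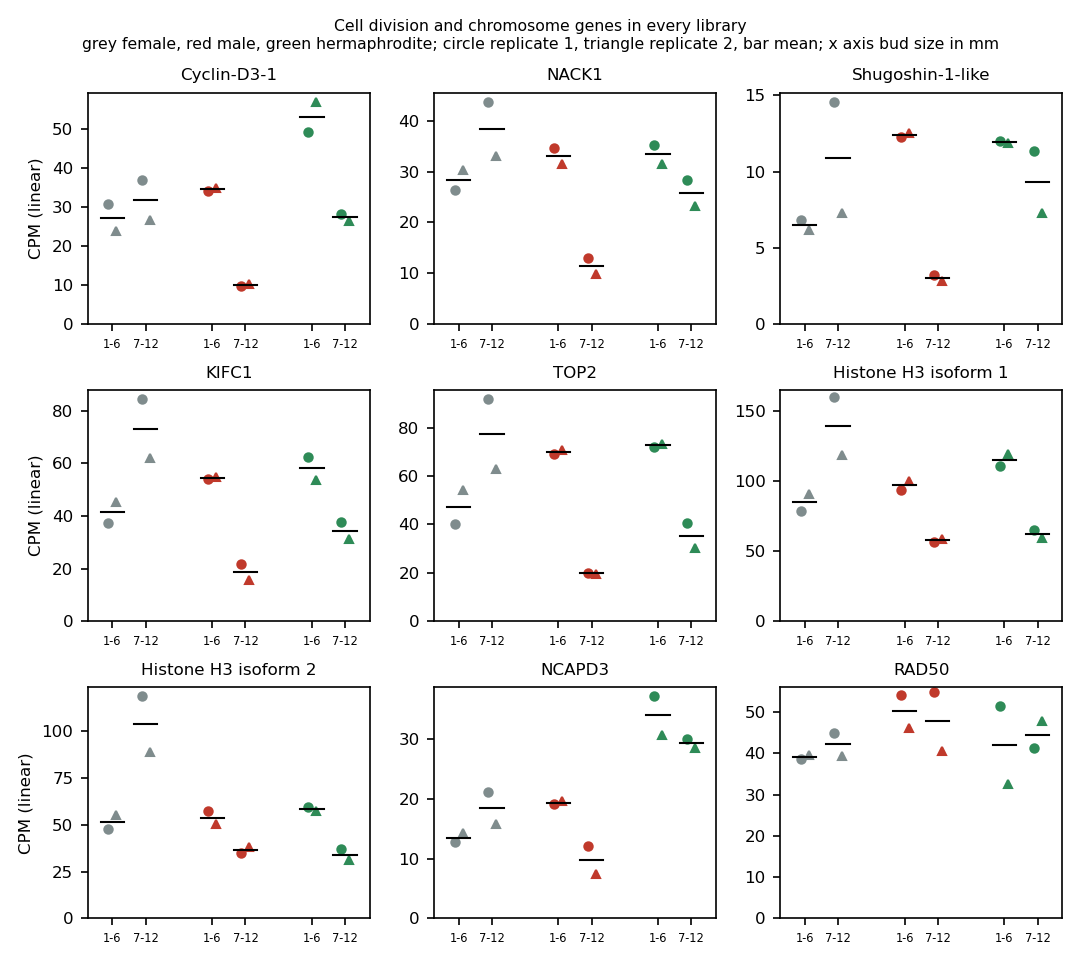
Panels show the CPM of the 9 cell division and chromosome genes on linear y axes that start at 0, laid out as for the anther genes (female grey, male red, hermaphrodite green, circles replicate 1, triangles replicate 2, bars means). In males 8 of the 9 genes are lower in both larger libraries, whereas the mean of the 2 female libraries is higher at 7–12 mm in each panel, and RAD50 overlaps between the sizes.

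Of 15 regulators of growth and patterning, 4 were called lower and none higher, with a median log2 fold change of -0.62. Over all tested genes 3.52% were called lower and 3.73% higher. The other 11 were not called, with MYB4-like at 0.23 and the rest below 0. ANT-b, an AINTEGUMENTA model of a factor that keeps organ cells dividing in Arabidopsis, measured 47.42 and 47.76 and then 13.63 and 10.07 CPM (log2 -1.99, SE 0.17, edgeR adjusted p = 6.83e-06). For ANT-a, whose model is placed on 2 scaffolds, the change was -1.45 (edgeR adjusted p = 0.0007867), and AIL5, of the same family, changed by -1.33 (edgeR adjusted p = 1.282e-05). WOX4, a homeobox gene of vascular stem cells, measured 28.23 and 26.91 and then 6.465 and 8.59 CPM (log2 -1.91, SE 0.19, edgeR adjusted p = 2.466e-05). None of these 4 overlapped between the sizes, but they were picked by their call, and 23.8% of all tested genes were lower without overlap.

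Among hormone genes with a male count 1 of 7 rose and 1 fell, against 3.73 and 3.52% of all tested genes. CYP83B1, which in Arabidopsis channels auxin precursors into indole glucosinolates, had the largest fall of the listed genes, from 63.28 and 62.27 CPM to 2.493 and 4.887 CPM (18.6-fold lower, log2 -4.22, SE 0.38, edgeR adjusted p = 0.0002237). It was at -3.51 without replicate 1 and -4.82 without replicate 2 of the larger buds, called in both. ABA 8-hydroxylase 4, an enzyme that inactivates abscisic acid, had 41 and 18 counts and then 136 and 93, a 5-fold rise in scaled values (log2 2.32, SE 0.47, edgeR adjusted p = 0.009385). It lost the call when any single male library was left out (edgeR adjusted p = 0.05599 to 0.1075), with the log2 change at 2.18 to 2.48. ABA 8-hydroxylase 1 measured 90.23 and 54.24 and then 45.8 and 54.95 CPM and was not called (log2 -0.51, edgeR adjusted p = 0.08511). The brassinosteroid enzymes CYP90B1-like, CYP90C1 and CYP90A1 changed by 0.04, 0.06 and -0.44 and were not called.

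Of 11 genes of wall, cuticle and surface 1 rose and 2 fell, against 3.73 and 3.52% of all tested genes. CSLD1, of a cellulose synthase-like group that in Arabidopsis acts in pollen tube growth, had 1 and 0 counts in the smaller and 33 and 13 in the larger buds, a ratio of 59 (95% counting interval 10.1 to 2380, which covers counting error only). In larger hermaphrodite buds it had 28 and 13 counts and over the female libraries 2. The 1,4-beta-D-xylan synthase fell from 67.6 and 61 to 19.94 and 16.29 CPM (log2 -1.83, SE 0.12, edgeR adjusted p = 1.265e-06). COMITIN went from 101 and 26 counts to 3 and 6 (log2 -3.34, SE 0.54, edgeR adjusted p = 0.001413). Its log2 change was -2.26 without replicate 1 and -4.41 without replicate 2 of the larger buds, and the call was lost in the male libraries alone without the block (edgeR adjusted p = 0.06511). Its neighbour on the same scaffold, EP1-like/COMITIN, was not called (log2 0.29).

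Of the 18 remaining genes 4 rose and 1 fell, against 3.73 and 3.52% of all tested genes. A model annotated as egg cell secreted protein-like, of a family known in Arabidopsis from the egg cell, had 0 and 1 counts in the smaller male buds and 36 and 29 in the larger, a ratio of 83.4 (95% counting interval 14.4 to 3340). It had 16 and 10 counts in larger hermaphrodite buds and 1 count over the female libraries. DUF569 went from 9 and 3 to 46 and 33 counts (log2 3.10, SE 0.50, edgeR adjusted p = 0.0008362). SLC35D, a sugar nucleotide transporter, measured 15.86 and 15.5 and then 42.84 and 39.1 CPM (log2 1.38, SE 0.15, edgeR adjusted p = 4.254e-05). Spinster homolog 3 fell from 16.97 and 21.41 to 7.556 and 8.442 CPM (log2 -1.25, SE 0.16, edgeR adjusted p = 0.0001453). The rise of Probable kinase lay at the fold limit (log2 1.01, edgeR adjusted p = 0.03804) and was lost in 19 alternatives, among them the fit without the replicate block (edgeR adjusted p = 0.1857).

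Next to the other sexes, the male change was compared gene by gene with an interaction term. The change with size differed between males and females in 1472 genes (7.61%), 698 above and 774 below the female change (3.61 and 4% of those tested). The count was 896 without replicate 1 of the female buds of 1–6 mm and 965 without both libraries rich in the single gene model. Of the 722 genes that rose in males, 324 rose more than in females by that test and 2 less. Of the 681 that fell, 409 fell further than in females and 2 less. The median log2 change of the rising genes was 1.96 in males and 0.06 in females, and that of the falling genes -1.55 and 0.26. Since the interaction contains the male contrast that chose these genes, these counts describe the called genes and are no separate test of them. Over the 4 female libraries 106 of the rising genes and 32 of the falling ones had at most 3 counts, among 231 such genes tested.

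Against hermaphrodites 443 genes differed (2.29%), 142 above and 301 below the hermaphrodite change (0.734 and 1.56%). This count depended strongly on the fit. It was 99 without the replicate block, 159 without both libraries rich in the single gene model, and 76 to 582 when 1 library was left out, with 76 without replicate 1 of hermaphrodite buds of 1–6 mm, 134 without replicate 1 and 280 without replicate 2 of male buds of 1–6 mm, 201 without replicate 1 of male buds of 7–12 mm and 260 without replicate 1 of hermaphrodite buds of 7–12 mm. Of the rising genes 89 rose more and 11 less than in hermaphrodites, and of the falling genes 161 fell further. The rising genes had a median log2 change of 1.07 in hermaphrodites and the falling ones -0.64. Beyond both other sexes lay 65 rising and 102 falling genes. The interactions contain the male contrast that chose these genes, so these counts describe the called genes and are no separate test. The number of all tested genes beyond both other sexes was not counted, nor were these counts repeated in other fits. The rising genes held 2.05 and 2.28% of the counts of smaller hermaphrodite buds, 5.21 and 5.86% of the larger and 2.2 to 2.69% of the female libraries.

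At most 3 counts over all 8 female and hermaphrodite libraries were found for 19 of the rising and 0 of the falling genes. Of these 19 genes, 14 had no count in the smaller male buds, and all together they had 24 to 184 counts per gene over both larger male libraries (median 41). These are low counts. Genes so low in the other 8 libraries pass the low-count filter only through the male buds in which they are high. The counts of 19 and 0 thus follow in part from that filter and are no test of a male trait. The number of such genes among all tested was not counted.

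Lists called on contrasts of the other sexes were read in males. Those contrasts hold no male library, but the fit behind them shares its spread and replicate block with the male libraries. Of 559 genes called higher in larger hermaphrodite buds (2.89% of those tested), 282 were called higher and 21 lower in larger male buds (median log2 change 1.24), against 3.73 and 3.52% of all tested genes. Of 291 genes called lower there (1.5%), 1 was higher and 156 were lower in males (median -1.20). Of 217 genes higher in larger female buds (1.12%), 57 were higher and 20 lower in males (median 0.45), and of 415 genes lower in larger female buds (2.15%), 18 were higher and 61 lower (median -0.27). The counts of lower genes were smaller without some male libraries. Without replicate 1 of the larger male buds they were 3 in place of 21, 102 in place of 156, 8 in place of 20 and 25 in place of 61, in the order of the 4 lists. Without replicate 1 of the smaller male buds the 21, 20 and 61 became 4, 10 and 37, and the 18 became 11, and without its replicate 2 they became 11, 11 and 40. Without the replicate block the 21 became 9.

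Genes found in hermaphrodite and not in female buds changed in both directions in males. Over all tested genes 3.73% were called higher and 3.52% lower in larger male buds. The list of genes hardly counted in female buds, defined above, had 52 members higher (40.9%) and 25 lower (19.7%) there. The other 50 were not called, and the list's median log2 change was 1.03. The number lower was 11 to 16 when replicate 1 or 2 of the smaller or replicate 1 of the larger male buds was left out. Of 1689 genes higher in hermaphrodite than in female buds of 7–12 mm (8.73% of those tested), 360 rose (21.3%) and 152 fell (9.01%) in males (median 0.22). Of 1620 genes lower there (8.38% of those tested), 30 rose (1.86%, below the share over all tested genes) and 194 fell (12%, median -0.16). The 152 became 67 to 86 when one of those 3 male libraries was left out.

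Among the listed genes the male change differed from the female change in 22, with 6 above and 16 below, and 8 of these 16 were cell division genes. KIFC1 changed by -1.52 in males and 0.82 in females, a difference of -2.35 (SE 0.23, edgeR adjusted p = 7.261e-05). TOP2 changed by 0.72 in females, a difference of -2.55 (SE 0.29, edgeR adjusted p = 0.0004188), and Shugoshin-1-like by 0.77, a difference of -2.81 (SE 0.37, edgeR adjusted p = 0.0003745). ANT-b changed by 0.66 in females (difference -2.65, SE 0.22, edgeR adjusted p = 2.646e-05). For AP3 isoform 1 the female change was 0.03 and the difference 1.25 (SE 0.17, edgeR adjusted p = 0.0003915). In hermaphrodites the log2 changes of these 8 division genes ran from -0.22 to -1.02. The difference from males was called for NACK1 (-1.16) and Shugoshin-1-like (-1.72), and both calls were lost without the replicate block (edgeR adjusted p = 0.1044 and 0.1446).

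Among the 5 tapetum genes, the change with size was called different between males and hermaphrodites for DYT alone. TDF1 measured 252.4 and 320.8 CPM in smaller and 649.5 and 587 CPM in larger hermaphrodite buds, where the male values went from 495.6 and 393.9 to 252.4 and 323.5 CPM, but the difference in change was not called (log2 -1.77, edgeR adjusted p = 0.1405). AMS isoform 1 measured 509.3 and 650.9 and then 997.5 and 652.8 CPM in hermaphrodites (difference -2.13, edgeR adjusted p = 0.1258). AMS isoform 2 measured 3.825 and 4.489 and then 40.24 and 51.06 CPM in hermaphrodites, and its change was not called different from that in males (difference -0.56, edgeR adjusted p = 0.7158). DYT fell from 11.15 and 7.183 to 0.6258 and 0.6289 CPM in hermaphrodites, and the change in males lay above that (difference 3.01, SE 0.52, edgeR adjusted p = 0.009201). This call was lost without replicate 1 of the smaller male, the smaller hermaphrodite or the larger hermaphrodite buds (edgeR adjusted p = 0.05968, 0.1145 and 0.06488). CpMS1 had 2 and 0 counts in smaller hermaphrodite buds and 174.5 and 183.8 CPM in larger ones, and both smaller male libraries, at 56.95 and 6.058 CPM, lay above every smaller library of the other sexes (difference in change -8.21, edgeR adjusted p = 0.1988). Summed over the 5 tapetum genes, male levels went from 1398 and 1084 to 789.4 and 836.6 CPM and hermaphrodite levels from 776.7 and 983.4 to 1862 and 1475 CPM. The part of tapetum content in the other male changes was not tested.

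**Figure D5:**
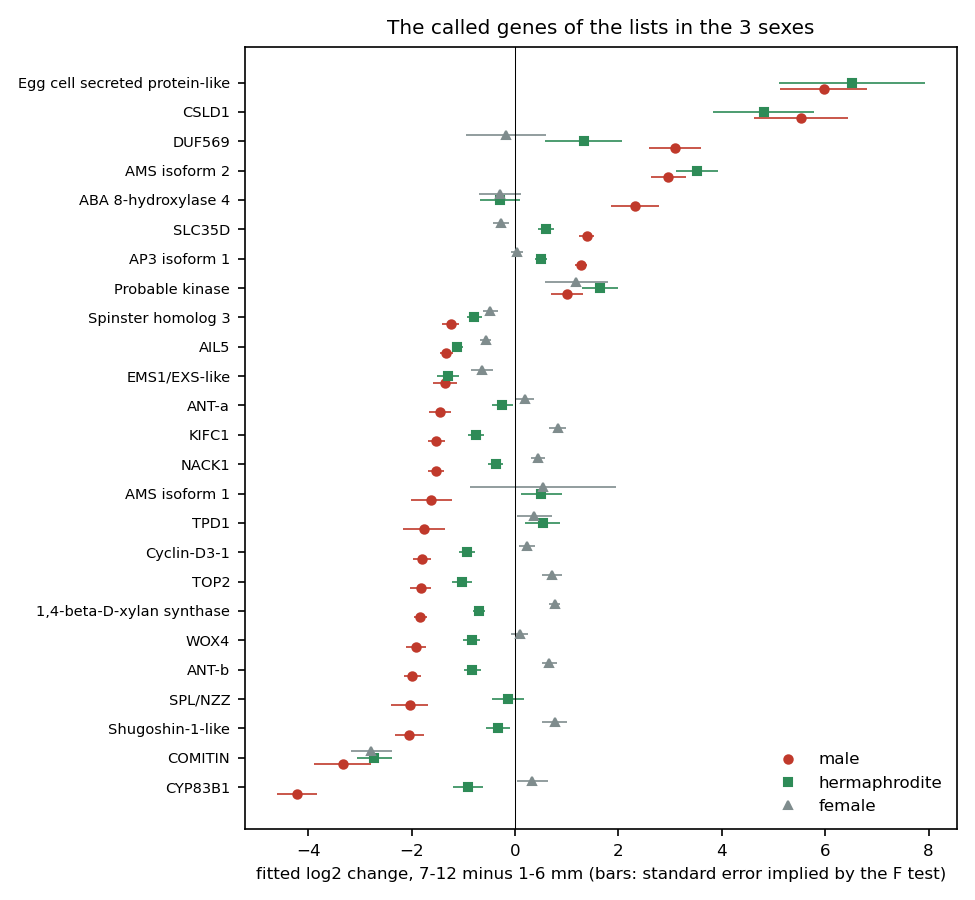
Rows are the 25 listed genes called in male buds, and the x axis is the fitted log2 change from 1–6 to 7–12 mm with the standard error implied by the F test as bars, for males (red circles), hermaphrodites (green squares) and females (grey triangles). A sex with at most 3 counts in each size is left out. KIFC1 and TOP2 lie below 0 in males and above 0 in females, and COMITIN lies below 0 in all 3 sexes.

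Called genes were also examined for position and length. Among 18407 pairs of neighbouring tested genes on a scaffold, both members rose in 82 pairs, both fell in 81 and they moved in opposite directions in 40. Over all tested genes 3.73% rose and 3.52% fell. The numbers of pairs to be met without regard to position were not computed. A read aligned to several places was counted at each, so similar neighbours can share reads, and a link with position was not tested. The longest runs of neighbours called in the same direction held 3 rising genes, with 6 such runs, and 4 falling genes, with 1 run. The gene with the largest rise, evm.model.supercontig_51.29, belonged to 1 of the 6 runs. The median coding length was 949.5 bases for rising, 1051 for falling and 936 for all tested genes, and 18 rising and 22 falling genes had models on several scaffolds, as had 440 of all tested genes.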

How the data were processed

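RNA from whole flower buds was measured in 12 libraries. The authors trimmed reads with Trimmomatic (0.36), aligned them to a PacBio papaya assembly with HISAT2 (2.0.5) and counted them over exons with featureCounts (1.5.2). The deposited values are raw counts per gene. Per the file headers, a read with several alignments added a count at each of them, and mates of a pair were counted separately. One strand setting was used for single-end and paired-end libraries alike, and whether it fits both mates of replicate 2 was not tested. The authors had mapped published coding sequences to that assembly with GMAP, which leaves untranslated regions out of the counts.

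The counts were fitted with edgeR 4.0.16 in R 4.3.3 (filterByExpr with a minimum count of 10, TMM, robust glmQLFit and glmQLFTest), with 1 coefficient per group over all 12 libraries and the replicate number as a block. Standard errors are the log2 change over the square root of F. The study's methods name no block. It was used because the number marks the sequencing platform. For each of the 15 pairs of groups, the deviations of libraries with the same number were correlated across genes, with r from 0.734 to 0.839. The common biological coefficient of variation was 0.11 with the block and 0.307 without it. The 2 replicates of each male size differed by more than counting noise (chi-square over degrees of freedom 16.9 and 17.4), which includes the change of sequencer and so does not bear on whether they share RNA. The steps were tested on simulated data.

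Named genes are the 83 of the study's tables and the 2 largest rises and falls. The most abundant called genes and the members of runs, which the rule also names, are given without IDs because no table at hand pairs IDs with names. The genes, lists and alternatives were chosen with earlier results of these data known. Alternatives were other filters, scaling by RLE, DESeq2 1.42.0, limma-voom (limma 3.58.1), edgeR's newer quasi-likelihood method, no fold limit, thinning to the smallest total, the male libraries alone, each replicate pair alone, and leaving out each library.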

Additional observations from a re-analysis of the deposited data

Results flagged for a closer look

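Differences in the change with bud size between males and another sex are given here, each tested with an interaction term in edgeR's quasi-likelihood test with Benjamini-Hochberg adjustment over all genes. Differences are male minus other, on the log2 scale. Against females 1472 genes differed, and against hermaphrodites 443.

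Of the listed genes, 16 had a lower and 6 a higher male than female change, against 4 and 3.61% of all tested genes. The study chose most listed genes for differences between these libraries, so these numbers are no separate support. For cell division and chromosomes the differences were -2.02 for Cyclin-D3-1, -1.97 for NACK1, -2.81 for Shugoshin-1-like, -2.35 for KIFC1, -2.55 for TOP2, -1.47 and -1.58 for Histone H3 isoforms 1 and 2, and -1.42 for the condensin subunit NCAPD3. For growth regulators they were -1.64 for ANT-a, -2.65 for ANT-b, -2.01 for WOX4 and -1.46 for VAN3-binding. The remaining ones were TPD1 at -2.13, CYP83B1 at -4.56, 1,4-beta-D-xylan synthase at -2.60 and EP1-like/COMITIN at -1.22. The 6 genes with a higher male change were AP3 isoform 1 at 1.25, ABA 8-hydroxylase 4 at 2.61, Expansin-like A2 at 1.26, DUF569 at 3.27, CRCK2 at 1.05 and SLC35D at 1.66. Of these 22 calls, 20 held without the replicate block and 17 in every alternative with a test. TPD1 (edgeR adjusted p = 0.08767) and DUF569 (edgeR adjusted p = 0.1095) were lost without the block.

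Against hermaphrodites the listed genes with a lower male change were TPD1 at -2.29, the meiocyte gene CpMMD1 at -3.72 with few counts, NACK1 at -1.16, Shugoshin-1-like at -1.72, ANT-b at -1.16, WOX4 at -1.07, ABA 8-hydroxylase 1 at -2.63, CYP83B1 at -3.31, 1,4-beta-D-xylan synthase at -1.14 and XBAT32/33 at -1.60. DYT had a higher one, at 3.01. Over all tested genes 1.56% had a lower and 0.734% a higher male change. Of these 11 calls, 3 held without the replicate block (ABA 8-hydroxylase 1, CYP83B1 and DYT), and ABA 8-hydroxylase 1 alone held in every alternative with a test. Sex and cultivar cannot be told apart in this contrast.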

How the results depend on the processing

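The number of genes that changed with male bud size was 1403, and 1188 to 1469 with other filters, RLE scaling, DESeq2, limma-voom, edgeR's newer method or thinning (DESeq2 gave 1188). It was 1100 without the replicate block, 1533 in the male libraries alone with the block and 918 without it, 3594 with no fold limit, and 1039 to 1519 when 1 library was left out. Without both libraries rich in a single gene model, chosen after seeing the data, it was 925. For the difference from females the count of 1472 became 1040 without the replicate block, 2937 with no fold limit, 965 without both libraries, and 896 to 1966 when 1 library was left out. For the difference from hermaphrodites the count of 443 became 99 without the replicate block, 675 with no fold limit, 159 without both libraries, and 76 to 582 when 1 library was left out. Leaving out a library leaves 1 sample in its group, which is then assumed to vary like the others. The causes were not tested.

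Of the 25 listed genes called in males, 18 were called in every alternative with a test. Over all 12 libraries without the replicate block the calls of AMS isoform 1 and Probable kinase were lost, and in the male libraries alone without the block those of Probable kinase, ANT-a (edgeR adjusted p = 0.05574) and COMITIN (edgeR adjusted p = 0.06511). Apart from the fold limit and left-out libraries, 3 uncalled genes became called: CpMS1 with limma-voom (adjusted p = 0.003031) and edgeR's newer method (adjusted p = 0.04875), CpMMD1 with that method (adjusted p = 0.03762) and in the male libraries alone with the block (edgeR adjusted p = 0.02601), and glucan endo-1,3-beta-glucosidase-like with limma-voom (adjusted p = 0.04254).

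Signs turned for 12 listed genes, none of them called as reported. Beta-glucosidase 32-like was at 0.01 without the replicate block, 0.0139 with limma-voom, 0.0996 after thinning and 0.0576 in the replicate 2 pair. Thinning gave -0.0875 for HAT4-like and -2e-04 for UGT80A2. Without both libraries AP2 was at -0.0444, GPAT1 at -0.2166, Calmodulin at 0.0044 and UGT80A2 at -0.0999. The replicate 1 pair gave -0.09 for AP2, 0.0188 for RAD50, -0.0429 for GPAT1, -0.0329 for HAT4-like, 0.0048 for Calmodulin and -0.1024 for UGT80A2. The replicate 2 pair gave -0.322 for MYB4-like, 0.0186 for ABA 8-hydroxylase 1, -0.1379 for CYP90B1-like, 0.0017 for COP1-like and -0.0596 for B120. With 1 library left out, the ranges were -0.2759 to 0.3334 for Beta-glucosidase 32-like, -0.0653 to 0.143 for HAT4-like, -0.0689 to 0.1283 for UGT80A2, -0.2383 to 0.5642 for MYB4-like, -0.1228 to 0.1549 for CYP90B1-like, -0.0756 to 0.0993 for AP2, -0.211 to 1.8554 for GPAT1, -0.3904 to 0.0703 for COP1-like, -0.0749 to 0.1732 for B120 and -0.2295 to 0.0436 for RAD50.

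With 2 libraries a size, whole buds and unstated numbers of plants, the comparison covers these libraries. Genes with few counts, such as CpMMD1, DYT and CSLD1, have wide errors. Size class, developmental stage and cell composition cannot be told apart.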
